A study of Mus musculus with 12 samples.

Results

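The genes described here are 35 macrophage and myeloid genes, given by name, and every probe set annotated to them was used. The rule uses no measured value, but the members were chosen with earlier results of these data known. All 35 had a probe set, 56 of the array's 22690 probe sets, and they make up 35 of the 12393 genes that a probe set names alone. Macrophages are phagocytes found in nearly every tissue, and in the mammary gland they lie around ducts and alveoli and between tumor cells. They are known for engulfing dying cells and debris, for presenting antigen, and for producing complement, chemokines and lysosomal enzymes. Signals from Fc receptors reach the cell through the adapter chain encoded by Fcer1g, that encoded by Tyrobp serves further myeloid receptors, and survival depends on the receptor encoded by Csf1r. Engulfed material is degraded in lysosomes by enzymes such as lysozyme and cathepsin S. In bulk tissue, fewer cells of a type and less RNA per cell cannot be told apart.

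Total RNA was measured on 12 arrays, 3 per group. Each of 3 breast cancer cell lines had 1 array: ME-A, the revertant line ME-B, and ME-B-T/t, which is labelled retransformed. The tumors were 3 breast cancers of WAP-SVT/t mice. The WAP-SVT/t glands and the NMRI glands were taken on day 1 of lactation, and the NMRI glands carry no transgene by their labels. All mice are females of strain NMRI per the labels, and in WAP-SVT/t mice the SV40 T and t antigens are made selectively in mammary epithelium, with WAP naming the whey acidic protein promoter. Age and the lactation state of tumor-bearing mice are not given in the labels. Tumors were compared with WAP-SVT/t glands, which carry the same transgene, and with NMRI glands. The lines were compared with tumors as a class, so that the spread among lines is one between different lines. Beyond sample numbers and tumor names the labels do not say which arrays come from separate mice, and p-values measure the spread between these arrays.

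The letters before the start sites of members with stable differences between tumors and NMRI glands are shown first, because members that rose together invite a look at them. The windows are the 250 bases before the start site in RefSeq on build GRCm38.p6, written 5′ to 3′ in the direction of the gene. Capitals mark the letters GAGGAA or, where the match lies on the other strand, TTCCTC, the core of the site bound by the myeloid factor PU.1. The windows are C1qb at chr4:136886201-136886450, minus strand, C1qc at chr4:136892915-136893164, minus strand, Fcgr3 at chr1:171059395-171059644, minus strand, and Fcer1g at chr1:171234350-171234599, minus strand.
C1qb: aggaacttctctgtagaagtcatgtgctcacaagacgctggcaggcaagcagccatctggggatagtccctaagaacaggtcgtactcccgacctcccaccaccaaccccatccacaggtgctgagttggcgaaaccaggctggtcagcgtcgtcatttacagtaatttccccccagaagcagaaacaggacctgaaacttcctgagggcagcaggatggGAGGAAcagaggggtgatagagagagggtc
C1qc: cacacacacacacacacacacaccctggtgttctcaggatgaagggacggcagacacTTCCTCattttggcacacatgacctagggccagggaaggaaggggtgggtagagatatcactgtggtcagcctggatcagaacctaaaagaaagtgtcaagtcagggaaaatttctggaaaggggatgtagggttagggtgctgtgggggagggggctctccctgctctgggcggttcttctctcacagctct
Fcgr3: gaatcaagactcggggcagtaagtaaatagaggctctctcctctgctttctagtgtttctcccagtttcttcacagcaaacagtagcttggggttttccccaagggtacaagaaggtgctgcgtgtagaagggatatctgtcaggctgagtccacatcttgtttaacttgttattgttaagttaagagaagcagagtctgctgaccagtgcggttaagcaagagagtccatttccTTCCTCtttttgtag
Fcer1g: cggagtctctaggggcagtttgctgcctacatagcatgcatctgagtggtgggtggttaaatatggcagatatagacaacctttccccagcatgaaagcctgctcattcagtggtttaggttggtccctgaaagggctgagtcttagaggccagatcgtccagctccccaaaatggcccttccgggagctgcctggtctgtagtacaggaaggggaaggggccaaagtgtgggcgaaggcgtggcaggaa
C1qb, C1qc and Fcgr3 held 1 match each, whose first base lay 30, 193 and 15 bases before the start site, and Fcer1g held none. A window was found for 25 of the 35 members, and 12 of these 25 genes (48%) had a match in at least 1 window, beside 25.9% of all 27025 genes with a window. A match is a run of letters and not evidence of binding. In gene order, C1qb, C1qc and C1qa are direct neighbours on chromosome 4, as are Lyz2 and Lyz1 on chromosome 10, Ccl9 and Ccl6 on chromosome 11, and Aif1 and Lst1 on chromosome 17.

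RNA integrity varied between arrays. The Gapdh ratio, the signal of the Gapdh control probe set near the 3-prime end over that near the 5-prime end, rises as RNA breaks. It was 0.949 in ME-A, 0.897 in ME-B and 0.753 in ME-B-T/t. It was 5.63, 0.982 and 0.969 in tumors 1 to 3, 10.7, 2.49 and 22.5 in WAP-SVT/t glands 1 to 3, and 12.9, 2.28 and 40.3 in NMRI glands 1 to 3. WAP-SVT/t gland 2 stood apart: it had the highest signal of its group for 26 of the 35 members and the highest of all 9 tissue arrays for 10. Its B and plasma cell markers summed to 7911, against 4507 and 2196 in WAP-SVT/t glands 1 and 3, and its T and NK cell markers to 5006, against 2123 and 2176. As a check of the lines against their label, the luminal epithelial gene Elf5 had 3148, 14.9 and 12.8 and Muc1 2649.9, 10.3 and 13.9 in that order of lines, so both were below the signal floor of 57.4 in ME-B and ME-B-T/t. Of 12 luminal genes on the array, the floor held 6 in ME-B and 7 in ME-B-T/t. Others lay above it in both lines, such as Krt19 with 932 and 108 and Elf3 with 260 and 218.

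Signals below are in scaled MAS5 units, differences are on the log2 scale with their standard error, and adjusted p-values come from limma fits over all genes tested, with a threshold of 0.05. In tumors against NMRI glands, 15 of 34 tested members rose and 1 fell, where 12.9% of all 7899 genes tested rose and 11.7% fell. The median log2 difference was 1.01 over the members and 0.02 over all genes. The members were C1qa, C1qb, C1qc, Ms4a6d, Fcgr3, Fcer1g, Ctss, Cybb, Lyz1, Cd53, Mpeg1, Cd68, Msr1, Ccl6 and Tyrobp, which rose, and Cd14, which fell. Groups did not overlap for 23 members, against 43.9% of all genes, 22 of them higher in tumors. In WAP-SVT/t glands against NMRI glands, 5 members rose and none fell by the limma test (14 had an unadjusted p under 0.05, all higher), where 6.09% of all genes rose and 4.05% fell. These 5 were Aif1, Ms4a6d, Mpeg1, C1qb and Lyz1, and the median was 0.77 over the members and 0.01 over all genes. Groups did not overlap for 15 members, against 31.1% of all genes. With the replicate number as a block, 8 members passed there, 7 higher and 1 lower, as did 11.7% of all genes. Ctss and Lyz2 were added as higher and Cd14 as lower. That pairing was read from these same data and not from the labels, and it cannot be told apart from RNA integrity. Both comparisons share the NMRI arrays.

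Tumors and WAP-SVT/t glands differed less. No member passed by limma, where 1.24% of all genes rose and 1.71% fell, and 3 members, C1qa, C1qc and Fcgr3, had an unadjusted p under 0.05. The median was 0.30 over the members, and the groups did not overlap for 3 members, against 19.6% of all genes. In the lines against tumors, 26 of 33 tested members fell and none rose (30 had an unadjusted p under 0.05, all lower), where 1.88% of 7344 genes fell and 0.422% rose. The median was -3.16 over the members, close to 0 over all genes, and the groups did not overlap for 30 members, against 23.5% of all genes. All 33 differences were below 0, but the filter on low signals fixed much of this. A gene was tested there only if 3 of the line and tumor arrays exceeded the pooled median signal. Only 7 members exceeded it in any line. Each other tested member thus had all tumors above that median and no line above it. For those members the sign and the lack of overlap were set in advance, and none could have risen. The summed signal of the members was 3909 to 5032 in the lines, 40146 to 45101 in tumors, 26976 to 53102 in WAP-SVT/t glands and 23391 to 32146 in NMRI glands.

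**Figure D1:**
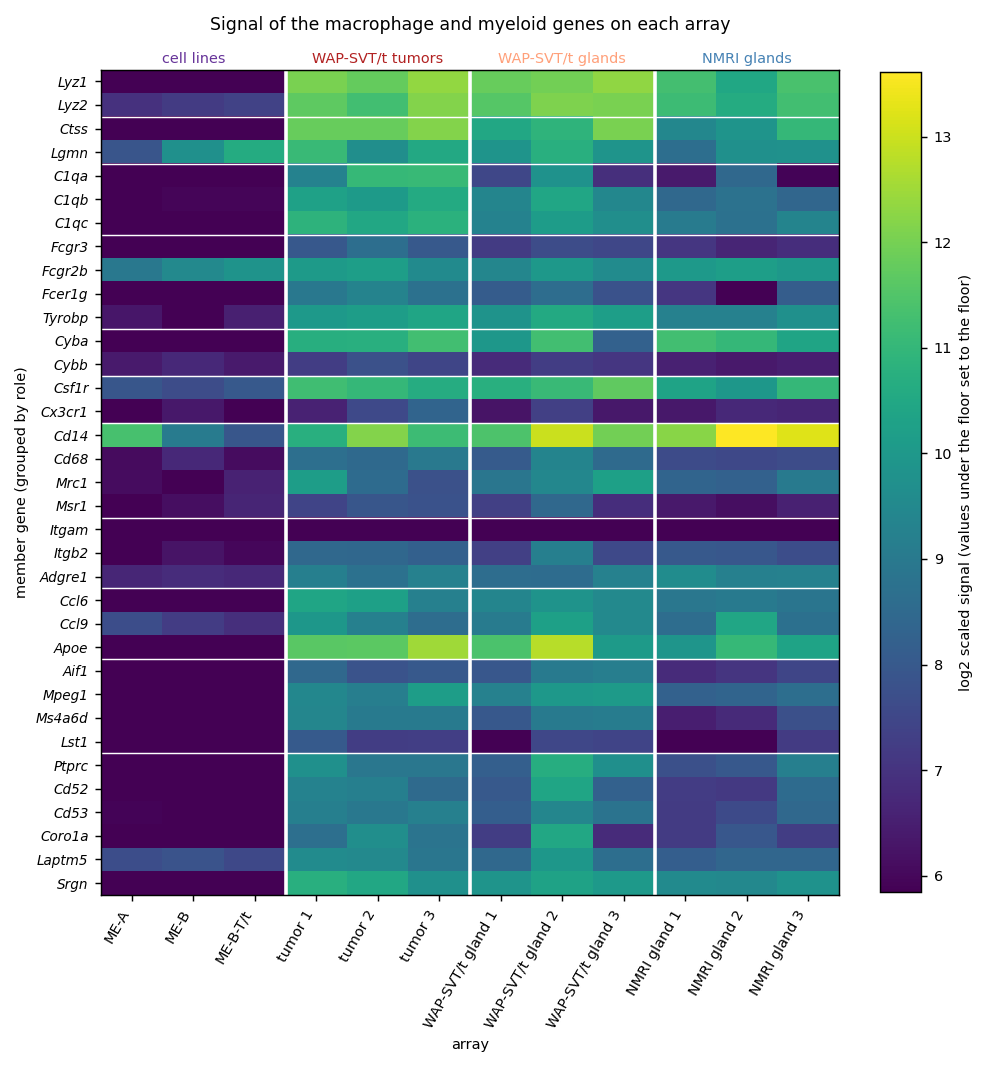
The heat map shows the log2 scaled signal of each member gene, one per line and ordered by role, on the 12 arrays (cell lines, tumors, WAP-SVT/t glands and NMRI glands in 3 columns each), with values under 57.4 set to that floor. The lines are dark for most members, except Cd14, Lgmn, Fcgr2b, Csf1r and Laptm5, and WAP-SVT/t gland 2 stands out within its group.

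**Figure D2:**
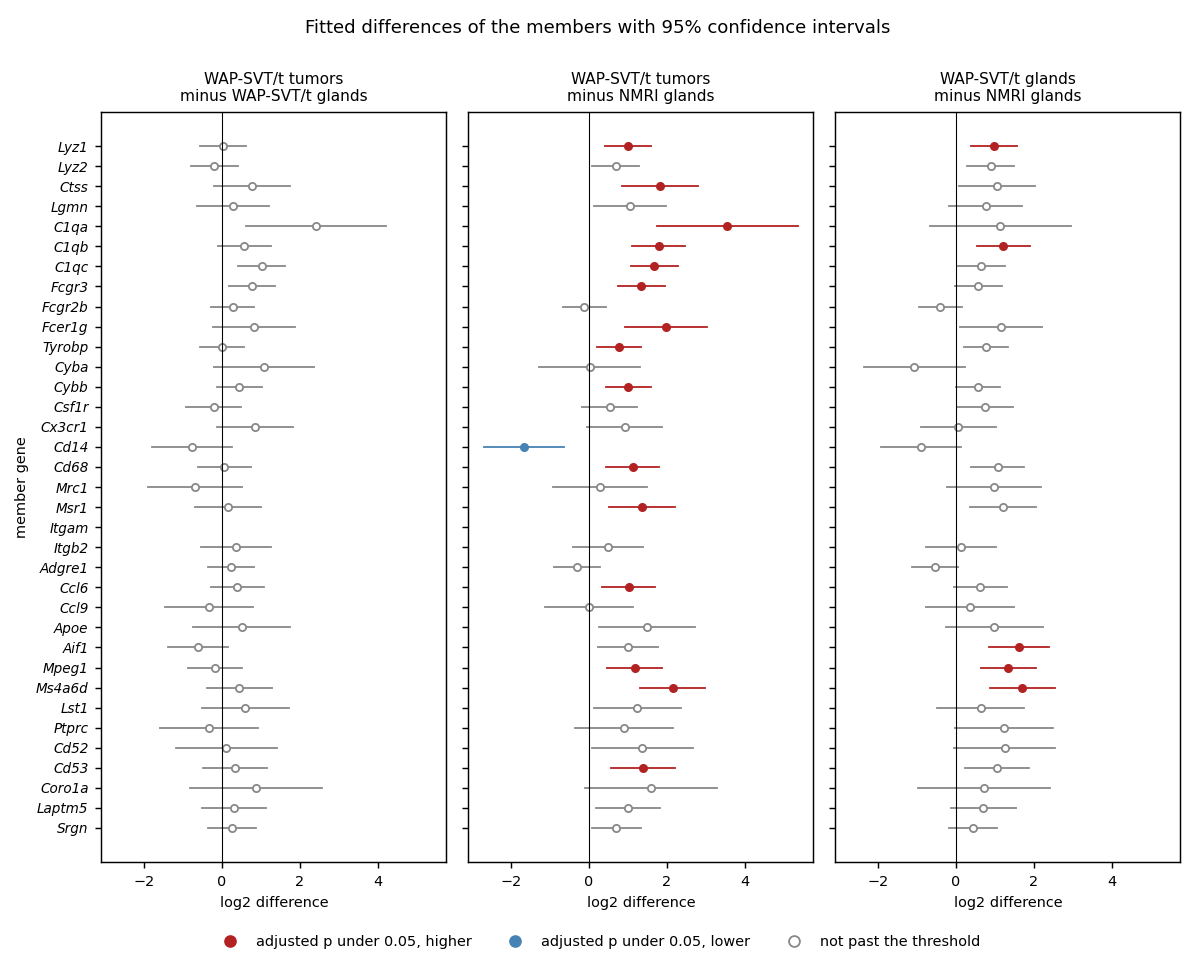
The points are the fitted log2 differences of the tested members and the bars their 95% confidence intervals, in 3 comparisons of tissues with 3 arrays a group. Filled points passed an adjusted p of 0.05: 0 in tumors against WAP-SVT/t glands, 15 higher and 1 lower in tumors against NMRI glands, and 5 higher in WAP-SVT/t glands against NMRI glands.

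How far these counts changed without single arrays differed between comparisons. Leaving out 1 array affects the fit of every gene, and the shares of all genes called in those fits are not given here. For WAP-SVT/t against NMRI glands no member passed without NMRI gland 1 or without NMRI gland 2, and without WAP-SVT/t gland 2 the only call was Cyba, which was lower (log2 difference -1.79, adjusted p = 0.0450). For tumors against NMRI glands, 9 members passed without NMRI gland 1, 7 without NMRI gland 2 and 10 without tumor 3. The calls lost were Ccl6, Ctss, Cd53, Cd68, Mpeg1, Msr1 and Tyrobp without NMRI gland 1. Without NMRI gland 2 they were Ccl6, Cd14, Cd53, Cd68, Cybb, Lyz1, Mpeg1, Msr1 and Tyrobp. Without tumor 3 they were Cd14, Cd53, Cd68, Lyz1, Mpeg1, Msr1 and Tyrobp, while Srgn was added. Without WAP-SVT/t gland 2, 20 members passed in tumors against NMRI glands. The 4 added were Apoe, Cd52, Coro1a and Laptm5, with adjusted p = 0.0259, 0.0286, 0.00768 and 0.0171. That fit keeps the same tumor and NMRI arrays and changes the estimate of the spread. C1qa, C1qb, C1qc, Ms4a6d, Fcgr3 and Fcer1g passed in each of the 9 fits that left out 1 tissue array. With the Gapdh ratio as a covariate, 10 members passed in tumors against NMRI glands. Ccl6, Cd53, Cd68, Cybb, Mpeg1, Msr1 and Tyrobp were lost (adjusted p = 0.0979, 0.0617, 0.120, 0.0785, 0.0731, 0.147 and 0.141) and Csf1r was added. For tumors against WAP-SVT/t glands, C1qa, C1qc and Coro1a passed without WAP-SVT/t gland 2, with log2 differences of 3.28, 1.25 and 2.04 (adjusted p = 0.0465, 0.0446 and 0.0231).

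The C1q chains, which together form the recognition molecule of the classical complement pathway, all rose in tumors against NMRI glands. C1qb had 1258, 1088 and 1556 in tumors, 659.7, 1396 and 699 in WAP-SVT/t glands and 354, 434 and 337 in NMRI glands, so that every tumor and every WAP-SVT/t gland lay above every NMRI gland. On that probe set, 1417063_at, it was 3.45-fold higher in tumors than in NMRI glands (1.79 ± 0.31, adjusted p = 0.00196) and 2.32-fold higher in WAP-SVT/t than in NMRI glands (1.21 ± 0.31, adjusted p = 0.0286). The groups lay closer on 1434366_x_at, with 714, 593 and 742 in tumors and 574, 696 and 767 in WAP-SVT/t glands. NMRI glands had 558, 422 and 573 there. On 1437726_x_at C1qb had 992, 546 and 897 in tumors, 554, 800 and 800 in WAP-SVT/t glands and 285, 144 and 423 in NMRI glands. C1qc had 1866, 1447 and 1795 in tumors, 619.6, 1129.5 and 819 in WAP-SVT/t glands and 534, 429.8 and 653 in NMRI glands, and the tumors lay above all 6 glands. Its rise against NMRI glands was 3.19-fold (1.67 ± 0.27, adjusted p = 0.0015), while the difference between tumors and WAP-SVT/t glands, 1.03 ± 0.27, did not pass (adjusted p = 0.078).

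C1qa had 626, 2128 and 2182 in tumors, 180.1, 898 and 119 in WAP-SVT/t glands and 85.5, 351 and 60.3 in NMRI glands. It was 11.7-fold higher in tumors than in NMRI glands (3.55 ± 0.82, adjusted p = 0.00985), the largest difference of any member there. The signal of C1qa followed the Gapdh ratio over the tissue arrays: in the tumors, the WAP-SVT/t glands and the NMRI glands alike, the order of its signals was the reverse of the order of the ratios. With the Gapdh ratio as a covariate the difference was 1.64 ± 0.34 (adjusted p = 0.0103). In the same fit C1qb had 1.41 ± 0.34 and C1qc 1.76 ± 0.34 (adjusted p = 0.0179 and 0.00720). In the lines C1qa and C1qc were under the floor on every array, with signals of 6.86, 9.93 and 17.3 for C1qa and 4.68, 5.25 and 25.95 for C1qc, and C1qb had 18.6, 62.2 and 62.2. Against tumors, C1qa was at least 24.8-fold lower, C1qc at least 29.5-fold lower and C1qb 21.2-fold lower, the last a fold that depends on the floor (adjusted p = 0.00514, 0.000186 and 0.000341).

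**Figure D3:**
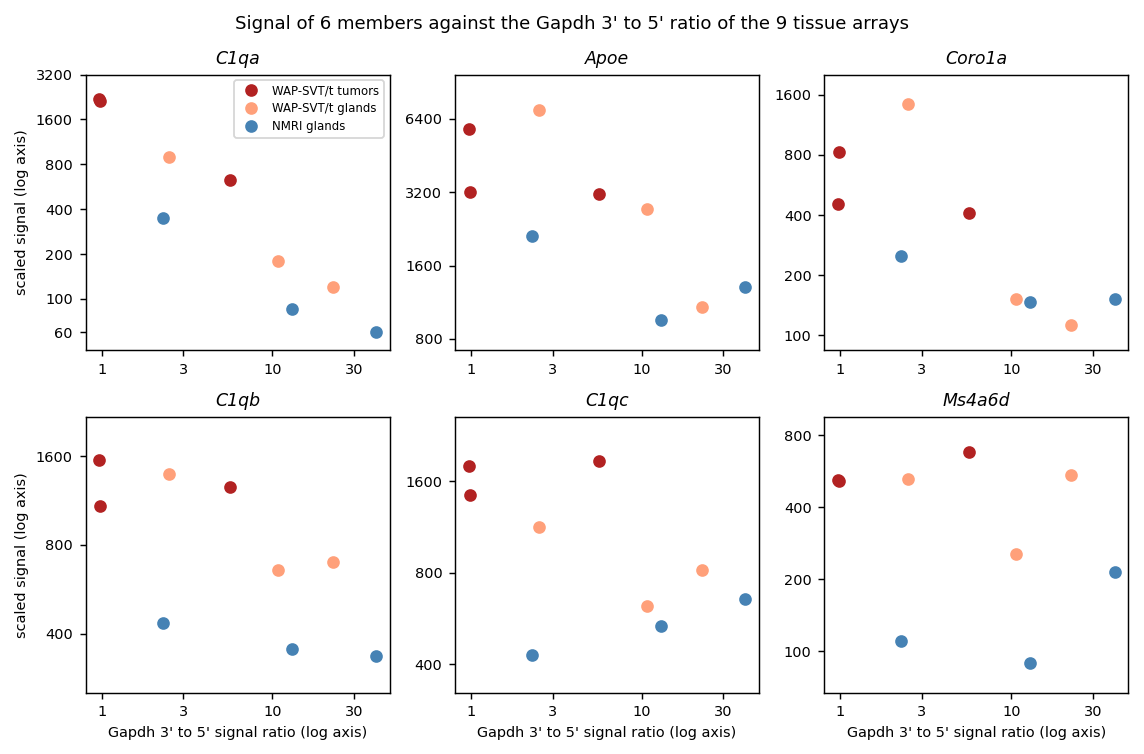
Each panel plots the scaled signal of a member against the Gapdh ratio on the 9 tissue arrays, both on log axes, with 1 point per array. Within each group C1qa falls as the ratio rises, with 2128 and 2182 at ratios under 1 and 60.3 at a ratio of 40.3. The tumor values of C1qa, C1qb, C1qc and Ms4a6d lie above those of NMRI glands. Ratios ran from 0.969 to 5.63 in tumors and from 2.28 to 40.3 in NMRI glands, so few arrays of these groups share a ratio range.

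Among the Fc receptors and their adapters, 3 of 4 members rose in tumors against NMRI glands. Fcgr3, a low-affinity receptor for IgG, had 250.4, 404 and 259 in tumors, 147, 199 and 181 in WAP-SVT/t glands and 135, 101 and 117 in NMRI glands, and no group overlapped with another. It was 2.55-fold higher in tumors than in NMRI glands (1.35 ± 0.27, adjusted p = 0.00453). The differences of tumors from WAP-SVT/t glands, 0.77 ± 0.27, and of WAP-SVT/t from NMRI glands, 0.58 ± 0.27, did not pass (adjusted p = 0.178 and 0.201). Fcer1g, the gamma chain that carries the signal of Fc receptors, had 492, 632 and 426 in tumors, 275, 392 and 222 in WAP-SVT/t glands and 135, 48.2 and 278 in NMRI glands. Its tumor values lay above all 6 glands, and NMRI gland 2 was under the floor, so its 3.94-fold rise against NMRI glands depends on the floor (1.98 ± 0.48, adjusted p = 0.0119).

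Tyrobp, the adapter chain DAP12, had 1045, 1142 and 1357 in tumors, 913, 1513 and 1167 in WAP-SVT/t glands and 617, 607 and 864 in NMRI glands. Tumors and WAP-SVT/t glands lay above NMRI glands, and the tumor rise was 1.71-fold (0.77 ± 0.26, adjusted p = 0.0492), a call lost in 8 of 13 other settings. In the lines Fcgr3 had 7.66, 10.7 and 16.2 and Fcer1g 11.04, 14.2 and 17.7, all under the floor, and Tyrobp had 80.3, 48.9 and 91.3. Against tumors Fcgr3 was at least 5.17-fold lower, Fcer1g at least 8.88-fold lower and Tyrobp 15.7-fold lower, the last with ME-B at the floor (adjusted p = 0.00774, 0.00159 and 0.000984).

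Fcgr2b, the inhibitory IgG receptor, gave different answers by probe set. The probe set with the highest signal, 1435476_a_at, stood for the gene and had 493, 723 and 904 in the lines, 1078, 1181 and 751 in tumors, 683, 1022 and 769 in WAP-SVT/t glands and 1059, 1163 and 1005 in NMRI glands. On it no comparison passed: the difference was -0.12 ± 0.25 between tumors and NMRI glands and -0.52 ± 0.31 between lines and tumors (adjusted p = 0.757 and 0.432). The 3 other probe sets of the gene were low in the lines and high in tumors. Probe set 1435477_s_at had 4.58, 4.57 and 14.3 in the lines, 1126, 1432 and 596 in tumors, 294, 371 and 623 in WAP-SVT/t glands and 134, 119 and 271 in NMRI glands.

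Tested on its own among all probe sets, 1435477_s_at rose in tumors against NMRI glands (2.60 ± 0.43, adjusted p = 0.00192), and so did 1451941_a_at (2.42 ± 0.39, adjusted p = 0.00163) and 1455332_x_at (1.51 ± 0.30, adjusted p = 0.0049). Probe set 1451941_a_at had 698, 695 and 357 in tumors, 122, 157 and 144 in WAP-SVT/t glands and 110.0, 61.9 and 167 in NMRI glands, and it rose in tumors against WAP-SVT/t glands as well (1.99 ± 0.39, adjusted p = 0.0278), the only member probe set that did. These 3 probe sets also fell in the lines against tumors, with adjusted p = 0.00241, 0.00431 and 0.00735. The files do not say which transcripts of Fcgr2b each probe set reads.

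**Figure D4:**
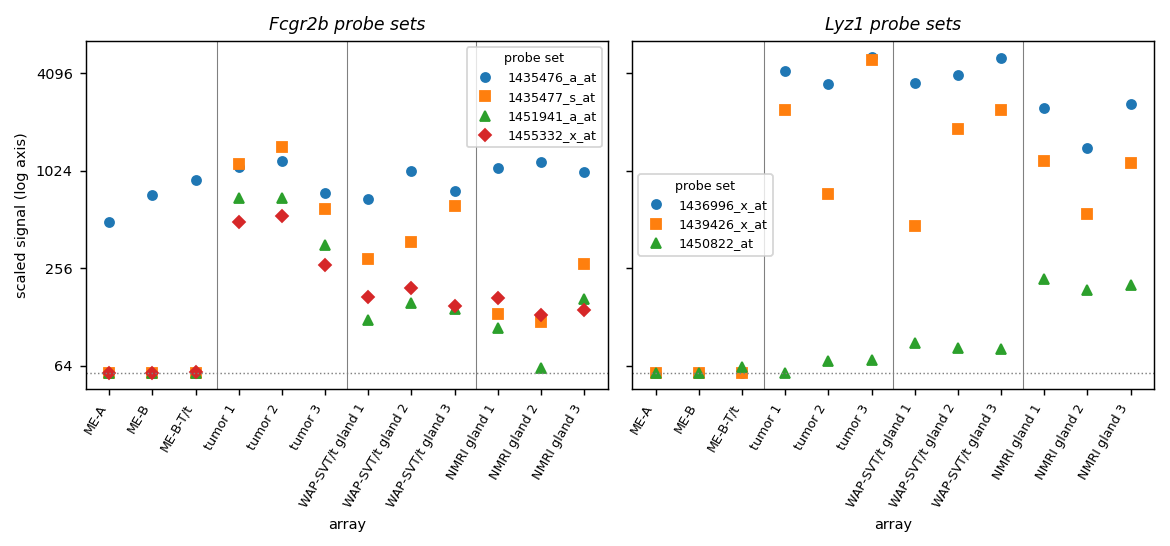
The panels plot the scaled signal (log axis) of each probe set of Fcgr2b and of Lyz1 on the 12 arrays, with values under 57.4 drawn at that floor (dotted line). Probe set 1435476_a_at of Fcgr2b stays between 493 and 1181 on all arrays while the other 3 have their highest values in tumors, and 1450822_at of Lyz1 is highest in NMRI glands while 1436996_x_at is highest in tumors and WAP-SVT/t glands.

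Lysozymes, which cut bacterial cell walls, were high in tumors and WAP-SVT/t glands. Lyz1 had 4239, 3525 and 5201 in tumors, 3548, 3991 and 5130.1 in WAP-SVT/t glands and 2499, 1425 and 2661 in NMRI glands on its brightest probe set, with every tumor and WAP-SVT/t gland above every NMRI gland. It rose in tumors against NMRI glands (1.01 ± 0.27, adjusted p = 0.0192) and in WAP-SVT/t against NMRI glands (0.98 ± 0.27, adjusted p = 0.0422). Lyz2, the macrophage lysozyme, had 3296, 2473 and 4563 in tumors, 3036, 4396 and 4221 in WAP-SVT/t glands and 2323, 1562 and 2452 in NMRI glands. Its groups did not overlap with NMRI glands either, but its differences, 0.69 ± 0.27 for tumors and 0.89 ± 0.27 for WAP-SVT/t glands, did not pass (adjusted p = 0.09 and 0.0647). With the replicate block Lyz2 passed in WAP-SVT/t against NMRI glands (adjusted p = 0.0461). Lyz1 and Lyz2 are close copies of each other, and how far a probe set binds RNA of both is not known here.

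Another Lyz1 probe set ran the other way. Probe set 1450822_at had 57.95, 68.98 and 69.2 in tumors, 88.02, 83.00 and 80.8 in WAP-SVT/t glands and 219, 189 and 203 in NMRI glands, and tested on its own it fell in tumors (-1.64 ± 0.26, adjusted p = 0.00139) and in WAP-SVT/t glands (-1.28 ± 0.26, adjusted p = 0.0113) against NMRI glands. The third, 1439426_x_at, had 2429, 735 and 4923 in tumors, 469, 1869 and 2417 in WAP-SVT/t glands and 1173, 556 and 1142 in NMRI glands and did not pass (adjusted p = 0.262 in tumors against NMRI glands). On the mean of the 3 probe sets Lyz1 passed neither comparison with NMRI glands (adjusted p = 0.735 in tumors and 0.930 in WAP-SVT/t glands). In the lines Lyz1 had 3.48, 1.85 and 2.27 on its brightest probe set and Lyz2 had 123, 146 and 165. Against tumors Lyz1 was at least 74.3-fold lower and Lyz2 23.2-fold lower (adjusted p = 7.21e-05 and 0.000784).

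The lysosomal proteases differed from each other. Ctss, or cathepsin S, which trims the invariant chain in antigen-presenting cells, had 3547, 3617 and 4598 in tumors, 1456, 1914 and 4253 in WAP-SVT/t glands and 690.5, 924 and 2092 in NMRI glands. It was 3.54-fold higher in tumors than in NMRI glands with no overlap (1.82 ± 0.44, adjusted p = 0.0124), and lost that call without NMRI gland 1 (adjusted p = 0.0540). In WAP-SVT/t against NMRI glands it had 1.05 ± 0.44, adjusted p = 0.161, and passed with the replicate block (adjusted p = 0.0324). In the lines it had 33.9, 25.01 and 29.7, at least 67.8-fold lower than in tumors (adjusted p = 7.21e-05). Lgmn, the asparaginyl endopeptidase legumain, had 239, 863 and 1569.9 in the lines, in the order above, 2227, 818 and 1475 in tumors, 932, 1699 and 926 in WAP-SVT/t glands and 406, 851 and 869.7 in NMRI glands. The lines and tumors overlapped, with a difference of -1.02 ± 0.70 (adjusted p = 0.497), and ME-B-T/t lay above tumors 2 and 3.

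Of the NADPH oxidase, which makes superoxide in phagocytes, the subunits Cyba and Cybb were members. Cybb, the catalytic subunit, had 152, 218 and 175 in tumors, 111, 154 and 136 in WAP-SVT/t glands and 94.8, 83.4 and 89.8 in NMRI glands. Every tumor lay above every NMRI gland, a 2.01-fold rise (1.01 ± 0.26, adjusted p = 0.0167). The lines had 85.1, 107 and 85.3, below every tumor but close to NMRI glands, and the difference from tumors, -0.97 ± 0.27, did not pass (adjusted p = 0.135). Cyba, its partner chain, had 1693, 1707 and 2470.2 in tumors, 989, 2459 and 308 in WAP-SVT/t glands and 2464, 2086 and 1339 in NMRI glands, with wide overlap and no call among the tissues. The lines had 32.8, 9.24 and 10.3, at least 33.5-fold lower than in tumors (adjusted p = 0.000186).

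Csf1r, the receptor for the macrophage growth factors CSF1 and IL34, is a defining marker of the lineage, and it passed no tissue comparison. It had 2384, 2087 and 1627 in tumors, 1706, 2209.5 and 3349 in WAP-SVT/t glands and 1295, 997 and 2079 in NMRI glands, and all 3 groups overlapped. The difference was 0.53 ± 0.32 between tumors and NMRI glands, with a 95% interval of -0.18 to 1.24, and 0.74 ± 0.32 between WAP-SVT/t and NMRI glands (adjusted p = 0.256 and 0.172). With the Gapdh ratio as a covariate the difference between tumors and NMRI glands was 1.03 and passed (adjusted p = 0.0494). Another probe set of the gene, 1419873_s_at, had 1039, 848 and 582 in tumors, 580.5, 902 and 829 in WAP-SVT/t glands and 325, 291 and 602 in NMRI glands and passed on its own (1.06 ± 0.34, adjusted p = 0.0459), with NMRI gland 3 and tumor 3 overlapping. In the lines Csf1r had 244, 202 and 261, above the floor in each, and was 8.57-fold lower than in tumors (adjusted p = 0.0014).

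Cx3cr1, the receptor for fractalkine, had 49.1, 80.6 and 55.3 in the lines, 95.9, 189.9 and 324 in tumors, 77.1, 159.6 and 81.2 in WAP-SVT/t glands and 81.8, 106 and 101 in NMRI glands, and passed in no tissue comparison. Its difference of tumors from NMRI glands was 0.92 ± 0.44 (adjusted p = 0.152), and it was too dim to be tested in the lines. A further probe set of Cx3cr1 was under the floor on all 9 tissue arrays.

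Pattern recognition and scavenger receptors moved in both directions. Cd68, a lysosomal glycoprotein widely used to stain macrophages, had 408, 360.2 and 504 in tumors, 272, 655 and 368 in WAP-SVT/t glands and 195, 183 and 199 in NMRI glands. Tumors and WAP-SVT/t glands all lay above NMRI glands. Cd68 was 2.18-fold higher in tumors (1.13 ± 0.31, adjusted p = 0.022), and its 2.10-fold difference in WAP-SVT/t glands stayed just outside the threshold (1.07 ± 0.31, adjusted p = 0.0516). Msr1, a scavenger receptor for modified lipoproteins, had 173, 240.4 and 221 in tumors, 158, 358 and 116 in WAP-SVT/t glands and 83.01, 69.4 and 93.9 in NMRI glands and was 2.57-fold higher in tumors than in NMRI glands (1.36 ± 0.38, adjusted p = 0.0241). The 3 other Msr1 probe sets were too dim to be tested.

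Mrc1, the mannose receptor, had 1160.2, 374 and 219.8 in tumors, 471, 701 and 1222 in WAP-SVT/t glands and 326, 304 and 530.4 in NMRI glands. Tumor 1 and WAP-SVT/t gland 3 were high, tumors 2 and 3 were not, and no tissue comparison passed (adjusted p = 0.743 for tumors against NMRI glands). In the lines Cd68 had 67.5, 107 and 68.7, Msr1 50.1, 70.2 and 101 and Mrc1 69.04, 48.7 and 96.1. Cd68 fell against tumors, being 5.31-fold lower (adjusted p = 0.0081). Msr1 and Mrc1 did not pass (adjusted p = 0.0619 and 0.0819). Their lines lay below every tumor, which the filter on low signals required of both.

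Cd14, the coreceptor for lipopolysaccharide, was the only member that fell in tumors against NMRI glands. It had 2633, 540.1 and 241 in the lines, in the order above, 1725, 4637 and 2318 in tumors, 2806, 8105 and 4013 in WAP-SVT/t glands and 4843, 12509 and 9638 in NMRI glands, and in each tissue group array 1 was the lowest and array 2 the highest. Every tumor lay below every NMRI gland, a 3.16-fold fall (-1.66 ± 0.47, adjusted p = 0.0248). The call was lost without NMRI gland 2 or 3 and without tumor 1 or 3 (adjusted p up to 0.0930). WAP-SVT/t glands overlapped with both other tissues (-0.89 ± 0.47 against NMRI glands, adjusted p = 0.254). With the replicate number as a block, a pairing read from the data, Cd14 was lower in WAP-SVT/t than in NMRI glands (-0.89 ± 0.18, adjusted p = 0.0152), and each WAP-SVT/t gland lay below the NMRI gland of its number. ME-A had 10.9-fold more Cd14 than ME-B-T/t and overlapped with the tumors, so lines and tumors did not separate (-1.92 ± 0.84, adjusted p = 0.308).

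**Figure D5:**
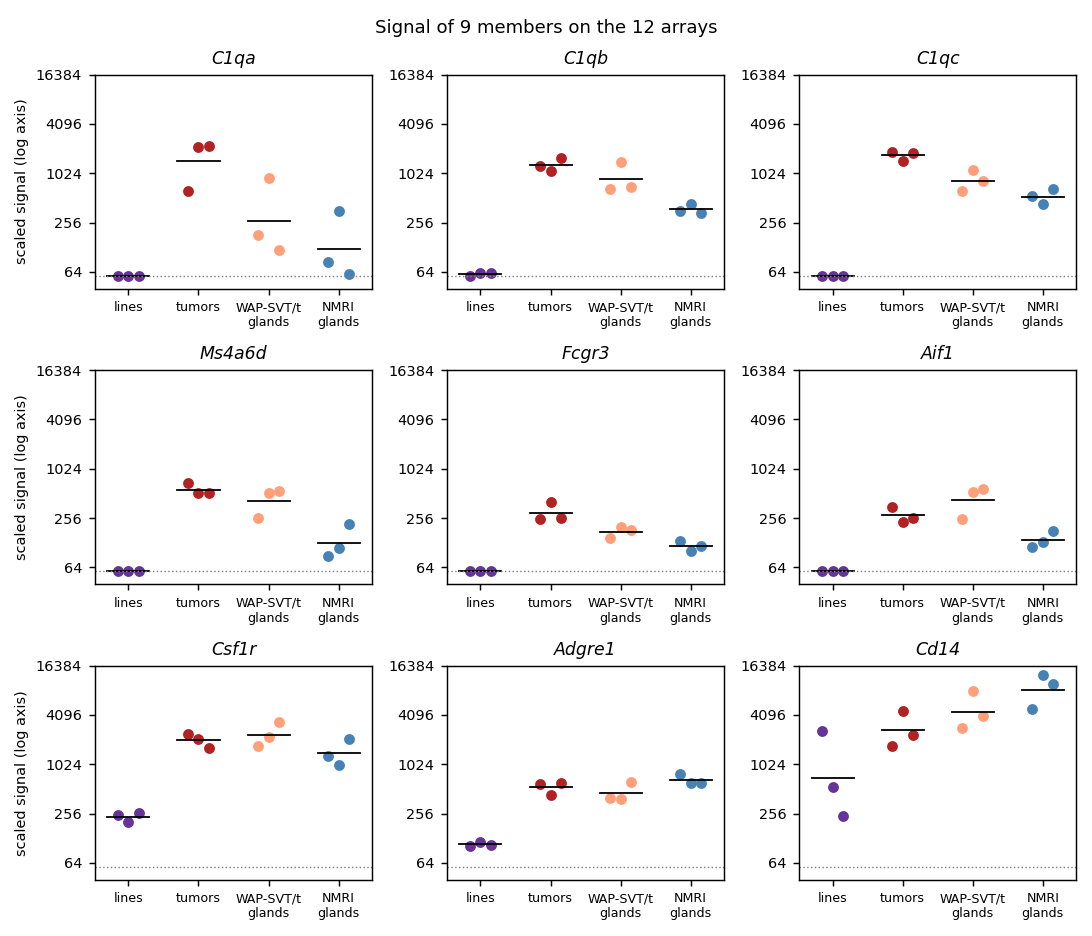
Points are the scaled signals (log axis) of 9 members on the 12 arrays, black bars the mean of the log2 values of each group of 3 arrays, and the dotted line the floor of 57.4. C1qa, C1qb, C1qc, Ms4a6d and Fcgr3 are higher in tumors than in NMRI glands without overlap, Aif1 is highest in 2 WAP-SVT/t glands, Csf1r and Adgre1 overlap between tissues, and Cd14 is lower in tumors than in NMRI glands.

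None of the integrin chains and F4/80 passed a tissue comparison. Adgre1, which encodes F4/80, a defining macrophage marker in mice, had 581, 429.8 and 610.4 in tumors, 395, 384 and 616 in WAP-SVT/t glands and 789, 599 and 611 in NMRI glands. Its difference was -0.31 ± 0.27 between tumors and NMRI glands, with a 95% interval of -0.89 to 0.28 (adjusted p = 0.429), and -0.54 ± 0.27 between WAP-SVT/t and NMRI glands, with an interval of -1.13 to 0.04 (adjusted p = 0.22). Both intervals include 0, and both estimates lie below it. Itgb2, the beta chain of leukocyte integrins, had 357, 349 and 297 in tumors, 159.8, 581 and 189 in WAP-SVT/t glands and 261, 249 and 207 in NMRI glands and did not pass (adjusted p = 0.417 for tumors against NMRI glands).

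Itgam, the CD11b chain, was under the floor on all 12 arrays, with 9.65, 14.8 and 18.2 in the lines, 8.46, 36.5 and 34.6 in tumors, 20.3, 29.97 and 32.2 in WAP-SVT/t glands and 23.6, 45.8 and 30.3 in NMRI glands, and was not tested. This defining myeloid marker was thus not measured above the floor in any tissue. In the lines Adgre1 had 102, 115 and 107 and Itgb2 49.5, 76.8 and 63.4. Both fell, Adgre1 4.96-fold lower and Itgb2 5.10-fold lower than in tumors (adjusted p = 0.00525 and 0.00514), the fold of Itgb2 depending on the floor.

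Among macrophage intracellular and membrane proteins, 3 of 4 members rose in WAP-SVT/t glands and 2 in tumors, each against NMRI glands. Ms4a6d, a membrane protein of the MS4A family, had 683, 514 and 518 in tumors, 254, 523 and 547 in WAP-SVT/t glands and 89.4, 109.8 and 214 in NMRI glands. It was 4.42-fold higher in tumors (2.14 ± 0.38, adjusted p = 0.00233) and 3.26-fold higher in WAP-SVT/t glands (1.70 ± 0.38, adjusted p = 0.0159) than in NMRI glands, with no overlap in either. Another of its probe sets, 1419598_at, had 492, 405 and 474 in tumors, 182, 305 and 209 in WAP-SVT/t glands and 79.3, 61.4 and 115 in NMRI glands and passed both comparisons on its own (adjusted p = 0.000282 and 0.0126). Mpeg1, the pore-forming perforin-2 of phagosomes, had 691, 577 and 1157 in tumors, 607, 1015 and 1074 in WAP-SVT/t glands and 308, 328 and 401 in NMRI glands. It was 2.25-fold higher in tumors (1.17 ± 0.32, adjusted p = 0.0206) and 2.54-fold higher in WAP-SVT/t glands (1.34 ± 0.32, adjusted p = 0.021).

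Aif1, the actin-bundling protein IBA1, was highest in WAP-SVT/t glands 2 and 3. It had 354, 229 and 257 in tumors, 247, 528 and 575 in WAP-SVT/t glands and 112, 132 and 176 in NMRI glands, and it was 3.06-fold higher in WAP-SVT/t than in NMRI glands (1.61 ± 0.35, adjusted p = 0.0132). The tumor difference of 1.00 ± 0.35 against NMRI glands did not pass (adjusted p = 0.0563), though the groups did not overlap. Lst1, a leukocyte transmembrane adapter, had 263, 153 and 157 in tumors, 36.7, 181 and 173 in WAP-SVT/t glands and 52.8, 54.7 and 146 in NMRI glands and passed in neither (adjusted p = 0.0999 in tumors). Without WAP-SVT/t gland 2 neither Aif1, Ms4a6d nor Mpeg1 passed in WAP-SVT/t against NMRI glands (adjusted p up to 0.0859 over the fits without 1 array). In the lines all 4 were under the floor on every array, and Ms4a6d was at least 9.86-fold lower, Mpeg1 at least 13.4-fold lower, Aif1 at least 4.79-fold lower and Lst1 at least 3.21-fold lower than in tumors (adjusted p = 0.00116, 0.00183, 0.00774 and 0.0363). The call of Lst1 held in 1 of 6 fits without 1 array.

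Of the secreted products, Ccl6 rose in tumors. Ccl6, a CC chemokine of myeloid cells, had 1354, 1220.0 and 601 in tumors, 671, 918 and 717 in WAP-SVT/t glands and 481, 533 and 469 in NMRI glands, and every tumor and WAP-SVT/t gland lay above every NMRI gland. Another probe set, 1420249_s_at, had 459, 442 and 195 in tumors, 171, 354 and 408 in WAP-SVT/t glands and 207, 222 and 315 in NMRI glands. There tumor 3 and WAP-SVT/t gland 1 lay below every NMRI gland. On the brightest probe set Ccl6 was 2.02-fold higher in tumors than in NMRI glands (1.02 ± 0.31, adjusted p = 0.0335). It lost that call without 5 of the tissue arrays, one at a time, and on the mean of its probe sets. Its neighbour Ccl9, also a CC chemokine, had 205, 151 and 119.9 in the lines, 996, 594 and 397 in tumors, 537, 1227 and 723 in WAP-SVT/t glands and 394, 1391 and 421 in NMRI glands, with full overlap between tissues (adjusted p = 0.992 for tumors against NMRI glands). The difference of Ccl9 in the lines against tumors, -1.99 ± 0.39, did not pass (adjusted p = 0.0538). Another Ccl9 probe set, 1448898_at, passed there on its own (-1.74, adjusted p = 0.0419), as did the mean of the gene's probe sets (-1.87, adjusted p = 0.0263). In the lines Ccl6 had 9.45, 11.5 and 3.13, at least 17.4-fold lower than in tumors (adjusted p = 0.00197).

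Apoe, the apolipoprotein that macrophages secrete during lipid export, had 3152, 3212 and 5818 in tumors, 2735, 6952 and 1077 in WAP-SVT/t glands and 958, 2118 and 1306 in NMRI glands. Each tumor lay above each NMRI gland, but WAP-SVT/t gland 2 was above every tumor and WAP-SVT/t gland 3 below NMRI gland 3, and the tumor difference of 1.49 ± 0.56 against NMRI glands did not pass (adjusted p = 0.0765). Like C1qa, Apoe was highest in each gland group on the array with the lowest Gapdh ratio, and with the ratio as a covariate the tumor difference was 0.53 ± 0.53 (adjusted p = 0.516). Coro1a, whose groups are given below, had 0.32 ± 0.73 (adjusted p = 0.792) in that fit. In the lines Apoe had 10.05, 7.69 and 38.6, at least 67.7-fold lower than in tumors (adjusted p = 0.000186).

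The pan-leukocyte members mark myeloid and lymphoid cells alike, and 1 of 6, Cd53, rose in tumors. Cd53, a tetraspanin, had 585, 499 and 599 in tumors, 289, 681 and 446 in WAP-SVT/t glands and 145, 191 and 356 in NMRI glands and was 2.61-fold higher in tumors than in NMRI glands (1.38 ± 0.37, adjusted p = 0.0206). Ptprc, the leukocyte phosphatase CD45, had 862, 487 and 483 in tumors, 294, 1649.6 and 834 in WAP-SVT/t glands and 213, 251 and 586 in NMRI glands. WAP-SVT/t gland 2 had the highest value of all arrays, the groups overlapped, and the differences of 0.90 ± 0.57 for tumors and 1.23 ± 0.57 for WAP-SVT/t glands against NMRI glands did not pass (adjusted p = 0.281 and 0.201).

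The same array was highest for Cd52, a small glycoprotein of leukocytes, which had 629, 582 and 369 in tumors, 257, 1346 and 306 in WAP-SVT/t glands and 150.0, 139 and 375 in NMRI glands and did not pass (adjusted p = 0.112 in tumors against NMRI glands). Coro1a, an actin regulator of leukocytes, had 408, 828 and 456 in tumors, 152, 1445 and 112 in WAP-SVT/t glands and 146, 249.7 and 151 in NMRI glands, so that WAP-SVT/t gland 2 was far above the other glands of its group. Lymphocyte markers were high on that array too: the T cell gene Cd3d had 13.1, 478 and 4.05 in WAP-SVT/t glands 1 to 3, and the B cell genes Cd79b and Ms4a1 had 52.9, 412 and 34.5 and 91.1, 595 and 80.4. These 3 genes were chosen after their values were seen, and the part of lymphocytes in the signals of Ptprc, Cd52 and Coro1a was not tested. Laptm5, a lysosomal membrane protein of leukocytes, had 779, 723 and 474 in tumors, 352, 1003 and 401 in WAP-SVT/t glands and 285, 342 and 337 in NMRI glands, with tumors and WAP-SVT/t glands all above NMRI glands but no call (adjusted p = 0.0727 and 0.26).

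Its probe set 1436905_x_at had 552, 499 and 386 in tumors, 264, 958 and 570.2 in WAP-SVT/t glands and 112, 107 and 227 in NMRI glands and, tested on its own, rose in tumors (1.76 ± 0.45, adjusted p = 0.0179) and WAP-SVT/t glands (1.91 ± 0.45, adjusted p = 0.0245). On Laptm5 probe set 1417721_s_at the tissue groups overlapped, with 110, 240 and 114 in tumors and 99.8, 240 and 177 in WAP-SVT/t glands. NMRI glands had 174, 100 and 165 on it. Srgn, or serglycin, the proteoglycan of secretory granules, had 1721, 1442 and 855 in tumors, 929.9, 1288 and 1031 in WAP-SVT/t glands and 763, 714 and 899 in NMRI glands and did not pass (adjusted p = 0.0914 in tumors against NMRI glands). In the lines Ptprc, Cd52, Coro1a and Srgn were under the floor on every array, and Ptprc was at least 10.2-fold lower, Cd52 at least 8.93-fold lower, Coro1a at least 9.33-fold lower and Srgn at least 22.4-fold lower than in tumors (adjusted p = 0.00254, 0.00254, 0.0043 and 0.000984). Cd53 had 60.5, 57.1 and 31.4 there and was 9.57-fold lower, a fold that depends on the floor (adjusted p = 0.000984).

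The lines as a whole kept few of these signals. The floor held 18 of the 35 members on all 3 line arrays, among them Ptprc, C1qa, C1qc, Fcgr3 and Fcer1g. Above the pooled median signal of 139.9 in all 3 lines were 5 members, Cd14, Csf1r, Fcgr2b, Laptm5 and Lgmn, and Ccl9 and Lyz2 exceeded it in at least 1. This holds for the probe set that stood for each gene. On 1419873_s_at Csf1r had 67.4, 31.7 and 102 in the lines, under that median in each, and on 1423593_a_at it had 150, 141 and 205. Laptm5 had 204, 229 and 185 on the probe set that stood for it, 3.14-fold lower than in tumors (adjusted p = 0.0267, lost in 4 of 6 fits without 1 array), but 2.59, 2.72 and 2.18 on 1436905_x_at, where all lines were at the floor. Lgmn and Cd14 ran in opposite orders over the lines: Lgmn was lowest in ME-A and 6.56-fold higher in ME-B-T/t, and Cd14 was highest in ME-A. These are single arrays of different lines, and the differences between them have no test.

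Other genes of the same pathways, outside the members, changed in a few cases. Of 12 myeloid growth factor, chemokine and cytokine genes tested, 2 rose in tumors against NMRI glands: Cxcl1, a neutrophil chemokine, with 615, 968 and 143 in tumors, 68.1, 193 and 93.4 in WAP-SVT/t glands and 11.1, 72.4 and 39.6 in NMRI glands (2.83 ± 0.61, adjusted p = 0.00724), and Mif, a cytokine also made by epithelial cells, with 4293, 4086 and 3935 in tumors, 3168, 1998 and 717 in WAP-SVT/t glands and 1741, 1545 and 1417 in NMRI glands (1.39 ± 0.42, adjusted p = 0.0334). No gene of that list passed in WAP-SVT/t against NMRI glands by limma. With 2 NMRI glands under the floor, the difference of Cxcl1 depends on the floor. Of 15 myeloid receptors tested, 5 rose and 1 fell in tumors against NMRI glands, namely Cxcr4, C3ar1, Axl, Clec4n and Fcgr1 against Tlr2. Cxcr4, a chemokine receptor that other cell types make too, had 293, 489.6 and 832 in tumors, 99.04, 99.2 and 77.4 in WAP-SVT/t glands and 78.5, 58.9 and 55.6 in NMRI glands and was also the only one that rose in tumors against WAP-SVT/t glands (2.43 ± 0.36, adjusted p = 0.00531).

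Tlr2, a receptor for bacterial lipoproteins, fell in tumors, with 278, 373 and 315 in tumors, 528, 889 and 390.0 in WAP-SVT/t glands and 1309, 1728 and 1527 in NMRI glands (-2.24 ± 0.30, adjusted p = 0.000435), and in WAP-SVT/t glands (-1.41 ± 0.30, adjusted p = 0.0134) against NMRI glands. C3ar1, the receptor for complement fragment C3a, had 329.5, 322 and 497 in tumors on a probe set other than the one tested among tissues. WAP-SVT/t glands had 230.4, 302 and 172 there and NMRI glands 151, 229 and 142. The probe set tested among tissues had means of 412 in tumors and 186 in NMRI glands. On it C3ar1 rose in tumors against NMRI glands (1.16 ± 0.32, adjusted p = 0.0208). Of 18 lysosomal hydrolase and membrane protein genes, 1 rose and 5 fell in tumors against NMRI glands, with a median of -0.29, and 3 fell in WAP-SVT/t glands. Lipa, the lysosomal acid lipase, had 592, 606 and 604 in tumors, 3685, 3013 and 2166 in WAP-SVT/t glands and 4303, 5376 and 5699 in NMRI glands (-3.08 ± 0.23, adjusted p = 8.11e-06), and Ctsl and Ctsb, cathepsins L and B, had differences of -1.496 ± 0.28 and -0.86 ± 0.18 (adjusted p = 0.00309 and 0.00546). Among the lysosomal members above, Ctss rose in that comparison and Lgmn had 1.05 ± 0.42, adjusted p = 0.092.

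Of 8 myeloid transcription factors tested, Batf3 rose and Nr1h3 fell in tumors, and Runx1 rose in WAP-SVT/t glands, each against NMRI glands (adjusted p = 0.0348, 0.0237 and 0.0342). Of 10 ITAM signalling and oxidase genes, none passed in tumors against NMRI glands by limma, and Blnk, an adapter of B cells, rose in WAP-SVT/t glands (1.38 ± 0.34, adjusted p = 0.0256). In the lines against tumors, 4 of 13 receptors fell, among them Fcgr1, Clec4n and Clec7a, and so did the signalling or oxidase genes Ncf4, Lcp1 and Inpp5d, 3 of 10.

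Markers of other cell types differed between the same groups. Of 8 adipocyte genes tested, 8 fell in tumors against NMRI glands, with a summed list signal of 1590 to 17807 in tumors, 34720 to 63809 in WAP-SVT/t glands and 33263 to 46869 in NMRI glands. Basal and myoepithelial genes fell in 7 of 7, with sums of 1873 to 4216 in tumors, 8955 to 12387 in WAP-SVT/t glands and 8252 to 12855 in NMRI glands. Endothelial genes fell in 5 of 9, with sums of 1539 to 2352 in tumors, 2533 to 3325 in WAP-SVT/t glands and 3093 to 3607 in NMRI glands. Of 13 skeletal muscle genes 2 fell, with sums of 339 to 15523 in tumors, 1388 to 27665 in WAP-SVT/t glands and 13691 to 28450 in NMRI glands. Of 12 luminal genes 3 fell, and of 11 fibroblast and matrix genes Fn1 rose and Dcn fell. The part of these cell types in the differences of the members was not tested.

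Few tested markers of other leukocytes rose. Of 7 T and NK cell genes tested, 4 fell and none rose in tumors against NMRI glands, and 3 fell in WAP-SVT/t glands. The list summed to 1577 to 2127 in tumors, 2123 to 5006 in WAP-SVT/t glands and 2798 to 3269 in NMRI glands, and Gzma, a granzyme of cytotoxic cells, had 44.6, 58.1 and 36.9 in tumors, 92.9, 122 and 157 in WAP-SVT/t glands and 428, 358 and 492 in NMRI glands (-2.87 ± 0.27, adjusted p = 3.49e-05). Of 4 B and plasma cell genes 1 fell in tumors, Jchain, of 4 mast cell genes 2, Cpa3 and Cma1, and of 5 neutrophil genes 1, Elane (adjusted p = 0.0348, 0.0229, 0.0404 and 0.0145). The neutrophil list had a median of 0.12 and summed to 1065 to 4240 in tumors and 1091 to 1958 in NMRI glands. Its gene S100a8 had 581, 1744 and 198 in tumors and 279, 98.4 and 669 in NMRI glands. S100a9 had 342, 1385 and 191 in tumors and 90.8, 95.9 and 259 in NMRI glands. Both overlapped and neither was called. Of 6 dendritic cell and class II genes 1 rose in tumors and in WAP-SVT/t glands, H2-Eb1, with 2872, 1859.7 and 369 in tumors, 1284, 1984 and 1439 in WAP-SVT/t glands and 247, 212 and 405 in NMRI glands (2.18 ± 0.61, adjusted p = 0.0241 and 2.48 ± 0.61, adjusted p = 0.0259). Tumor 3 overlapped with the NMRI glands there. In the lines against tumors, 3 of 6 class II and dendritic genes fell, H2-Ab1, H2-Aa and Cd74 (adjusted p = 0.0066, 0.0106 and 0.0229).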

How the data were processed

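RNA of 12 samples was hybridised to 1 Affymetrix array each. The deposited values are MAS5 intensities on a linear scale, per the submitters' processing notes. Its version and target scaling are not given in the sources read.

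Arrays were scaled to a common trimmed mean (2% off each end, largest ratio 1.19), floored at the pooled 30th percentile (57.4) and put on the log2 scale. The 64 control probe sets were left out. A gene was tested if 3 arrays exceeded the pooled median (139.9), on its probe set with the highest mean. Between 67.7% and 72.6% of probe sets per array were above the floor. limma 3.58.1 was fitted to 9 tissue arrays and, separately, to 3 lines and 3 tumors, with Benjamini-Hochberg adjustment over all genes tested, two-sided. The steps were tested on simulated data.

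Same-numbered WAP-SVT/t and NMRI glands deviated together from their group means (r = 0.222, 0.372 and 0.372), so their numbers were read as pairs, from the data and not the labels. Over all tissue groups, different-numbered arrays had r from -0.340 to 0.338. The Gapdh ratio ran in the same order over the numbers in both gland groups, so pairing and RNA integrity cannot be told apart. The block was fitted over all 9 tissue arrays.

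The members and 16 further gene lists were chosen with earlier results of these data known. All members were named, with values per array for those called or defining the lineage, and from other lists up to 3 called genes per comparison. Scaling, floor, filter, probe set choice, trend, arrays fitted, the Gapdh ratio, the replicate block and leaving out arrays were varied.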

Additional observations from a re-analysis of the deposited data

How the results depend on the processing

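No called member changed sign on the probe set that stood for it or on the mean of its probe sets, but Lyz1 probe set 1450822_at, tested on its own, passed with the opposite sign (-1.64 in tumors and -1.28 in WAP-SVT/t glands, each against NMRI glands). With no filter on low signals, 0 members passed in WAP-SVT/t against NMRI glands and 5 in tumors against NMRI glands. With every probe set on its own, 9 member probe sets passed in WAP-SVT/t against NMRI glands and 1 in tumors against WAP-SVT/t glands. With the Gapdh ratio as a covariate, 10 members passed in tumors against NMRI glands. The median difference between lines and tumors was -4.05 with the floor at the pooled 20th percentile, -2.998 with no floor, -3.33 with a filter at the 70th percentile and -2.92 with the mean of a gene's probe sets. The cause of these changes was not tested.

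Leaving out 1 array at a time, 0 to 7 members passed in WAP-SVT/t against NMRI glands, 0 to 3 in tumors against WAP-SVT/t glands, 7 to 20 in tumors against NMRI glands and 24 to 30 in lines against tumors. The medians ranged over 0.49 to 1.02, 0.07 to 0.59, 1.00 to 1.18 and -3.28 to -3.07 in that order. Where a line was left out, the remaining lines stand for the class. The shares of all genes called in these fits are not given here.

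Tumors shared only numbers with the glands: over their 6 same-numbered pairs the correlations ran from -0.172 to 0.329. With the replicate block, 8 members passed in WAP-SVT/t against NMRI glands, with the 5 of the fit without it among them, 1 in tumors against WAP-SVT/t glands, C1qa, and the same 16 in tumors against NMRI glands.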
